A study of Mus musculus with 2 samples.

Results

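Transcripts of the Myc and Max network were followed through the leukocytes and tumour cells of a mouse liver cancer, in 1 library from vehicle-treated and 1 library from STK-treated animals. The 9 genes (Myc, Mycn, Mycl, Max, Mxd1, Mxd4, Mxi1, Mnt and Mlx) were chosen by name, and all 9 were present among the 32285 genes of both matrices. The title of the series concerns the cholesterol-esterifying enzyme SOAT1, its inhibition, and regulatory T cells, and the labels do not tie STK to it. The animals had the genotype MYC-ON in both groups and carried hepatocellular carcinoma. By gavage they received either the vehicle DMSO or STK, an agent that the labels describe no further. Tumours were dissociated, dead cells were marked with DAPI, CD45+ cells were sorted, and 5′ droplet libraries were made with unique molecular identifiers (UMIs). The labels give the same batch for both libraries. They state neither the number, age or sex of the animals, nor the dose of STK, nor what construct, promoter or species of MYC lies behind MYC-ON, so counts of mouse Myc are not read as a measure of it. With a single library in each group there was nothing to test against, and every interval below is a 95% interval that covers counting error only.

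MYC, a basic helix-loop-helix transcription factor, binds DNA as a dimer with MAX at the E-box motif CACGTG and drives genes of ribosome production, nucleotide synthesis and cell growth. N-MYC and L-MYC are its relatives with narrower expression. The MXD proteins (MXD1, MXD4 and MXI1) and MNT also pair with MAX, occupy the same motif, and recruit SIN3 and histone deacetylases, so that they oppose MYC. MLX pairs with some MXD proteins, with MNT, and with the glucose sensors MondoA (Mlxip) and ChREBP (Mlxipl). In lymphocytes Myc is induced by antigen and cytokine signals and sets growth and division, whereas Mxd1 is a gene of differentiating and resting cells, best known in granulocytes.

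Promoter sequences, 250 bases before to 50 after a transcription start, were taken from RefSeq (GRCm38.p6), which matched 8 of the 9 genes with 10 promoters and held none for Myc. They are shown because the network's own binding motif lies in several of them. The E-box CACGTG, which reads the same on both strands, was found in 4 of the 10, those of Max, Mxd4, Mnt and Mlx, against 7.15% of 32851 promoters of the same length. In Max it began 3 bases before the start, in Mlx 40, in Mnt 123 and in Mxd4 219. The CCAAT box, searched as CCAAT and ATTGG for both strands, occurred in 3 of the 10, against 37.4% of all promoters. It was found 4 times in Mxd1 and 2 times each in Mxd4 and Mlx, and 11.7% of all promoters held it 2 times or more. Of the printed windows, that of Max is chr12:76962239-76962498 on the minus strand, that of Mxd4 chr5:34187701-34187960 on the minus strand, and that of Mnt chr11:74830674-74830933 on the plus strand. The window of Mlx is chr11:101087040-101087299 on the plus strand, and that of Mxd1 chr6:86669150-86669409 on the minus strand. Each line gives 250 bases before and 10 after the start, 5′ to 3′ on the gene's strand, with the E-box and the CCAAT box in capitals, and a match is a run of letters, not a site shown to be bound.
Max: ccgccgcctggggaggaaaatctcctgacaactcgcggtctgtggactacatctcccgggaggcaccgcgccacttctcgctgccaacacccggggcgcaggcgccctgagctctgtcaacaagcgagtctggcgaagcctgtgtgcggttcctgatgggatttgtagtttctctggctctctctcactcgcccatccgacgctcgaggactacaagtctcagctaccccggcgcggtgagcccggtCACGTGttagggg
Mxd4: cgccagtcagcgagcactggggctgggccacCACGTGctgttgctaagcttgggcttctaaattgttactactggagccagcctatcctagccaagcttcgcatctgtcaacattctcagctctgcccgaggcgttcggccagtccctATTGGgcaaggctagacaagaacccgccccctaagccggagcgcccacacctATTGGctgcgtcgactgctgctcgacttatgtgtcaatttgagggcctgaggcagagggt
Mnt: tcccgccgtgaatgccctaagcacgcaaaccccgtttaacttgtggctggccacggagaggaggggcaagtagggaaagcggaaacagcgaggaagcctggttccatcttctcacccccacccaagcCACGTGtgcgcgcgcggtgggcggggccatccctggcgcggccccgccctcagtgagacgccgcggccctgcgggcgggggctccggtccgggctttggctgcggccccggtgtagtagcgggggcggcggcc
Mlx: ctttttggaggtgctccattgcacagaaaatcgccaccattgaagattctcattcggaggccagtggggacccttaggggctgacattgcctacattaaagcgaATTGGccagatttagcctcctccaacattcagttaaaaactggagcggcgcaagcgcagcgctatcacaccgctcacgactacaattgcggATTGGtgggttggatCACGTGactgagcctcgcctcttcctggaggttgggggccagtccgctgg
Mxd1: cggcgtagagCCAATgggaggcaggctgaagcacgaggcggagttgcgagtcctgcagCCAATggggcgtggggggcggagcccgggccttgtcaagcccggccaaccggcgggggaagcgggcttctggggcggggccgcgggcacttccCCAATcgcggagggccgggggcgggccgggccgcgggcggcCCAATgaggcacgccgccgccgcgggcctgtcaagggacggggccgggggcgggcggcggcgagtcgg

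The libraries held 11784 and 11672 barcodes with 79322966 and 81859811 UMIs (here and below DMSO first, then STK), and 11152 and 10846 cells with medians of 4472 and 4930 UMIs were kept. Marker genes placed 6836 (61.3%) and 7351 (67.8%) of them in 14 leukocyte classes of 117 to 1514 cells, and the names below stand for these marker gates. All 36 check markers that no gate used were higher in their own gate than in the other gates, in both libraries. The hepatocyte or tumour gate, at least 5% of UMIs from Alb, Apoa1, Apoa2 and Ttr, held only 11 cells in each library. A wider gate, chosen after this was seen, asked for at least 0.5% of such UMIs, no Ptprc UMI and no leukocyte gate, and held 930 and 617 cells. These had Epcam, an epithelial surface gene, with 889 and 999 UMIs, median depths of 25362 and 24924 UMIs, Afp, the fetal liver antigen, at 3168 and 3269 CPM (counts per 1000000 UMIs of the class), and cell cycle transcripts in 77.2% and 75.2%. A total of 203 barcodes occurred in both libraries, 183 of them kept, and results without them are counted in the closing section. Of cells that could be sexed by Xist or by 4 Y-linked genes, 18.8% of the DMSO and 74% of the STK cells were female, so sex, animal and treatment cannot be told apart and values within each sex stand beside the main ones. The heat shock genes Hspa1a and Hspa1b, often raised by tissue dissociation, were at 171 and 229 CPM in DMSO CD8 T cells and at 9.63 and 9.25 CPM in STK CD8 T cells. In classical monocytes they were at 980.4 and 834 against 41.8 and 24.3 CPM. Their part in the results below was not tested.

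A gene was counted as measured in a class with at least 50 UMIs over both libraries, and as higher or lower when the STK CPM was at least 1.5 times above or below the DMSO CPM. The 9 genes gave 86 measured pairs of gene and class of the 126 possible. Of these, 15 (17.4%) were higher in STK, where 6% of all 99223 measured gene and class pairs were, and 8 (9.30%) were lower, where 6.79% of all pairs were. The pairs are not independent, because a gene recurs across classes. The higher pairs were 6 of Mxd1, 4 of Mxi1, 3 of Myc and 2 of Mnt. The lower pairs were 4 of Myc, 2 of Max, and 1 each of Mxd4 and Mycl, and Mlx had none of either kind in 13 classes. Of the 23 pairs past 1.5-fold, 22 kept their direction under every alternative that could be computed for them, and 10 stayed past 1.5-fold under all of them. The 10 were Myc in CD8 T cells, NK cells and non-classical monocytes, Max in Treg cells, Mxi1 in neutrophils, and Mxd1 in CD8, CD4 and other T cells, NK cells and non-classical monocytes. Of these, Mxi1 in neutrophils could be recomputed in neither sex, and Max in Treg cells in male cells only.

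By class, the lymphocytes held most of the paired differences of Myc and Mxd1. CD8 T cells had 1 of 7 measured members higher (7.04% of all genes) and 1 lower (3.45%), and other T cells likewise 1 of 7 higher (4.68%) and 1 lower (5.76%). NK cells had 2 of 7 higher (3.86%) and 1 lower (6.45%), Treg cells 2 of 6 higher (5%) and 1 lower (7.15%), and CD4 T cells 1 of 6 higher (6.48%) and 0 lower (8.05%). B or plasma cells had 0 of 5 higher (10.2%) and 2 lower (5.83%). In these lymphocyte classes Mxd1 accounted for 5 of the higher pairs and Myc for 4 of the lower ones. Macrophages had 2 of 7 higher (5.25%) and 0 lower (6%), classical monocytes 2 of 7 higher (5.48%) and 0 lower (5.98%), and non-classical monocytes 2 of 7 higher (5.48%) and 0 lower (9.06%). Dendritic cells differed little: cDC1 had 1 of 8 higher (4.95%) and 0 lower (6.89%), cDC2 0 of 7 higher (5.18%) and 0 lower (9.8%), migratory cells 0 of 4 higher (6.75%) and 1 lower (5.82%), and pDC 0 of 5 higher (8.97%) and 1 lower (5.75%). Neutrophils had 1 of 3 higher (13%) and 0 lower (20.7%).

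**Figure D1:**
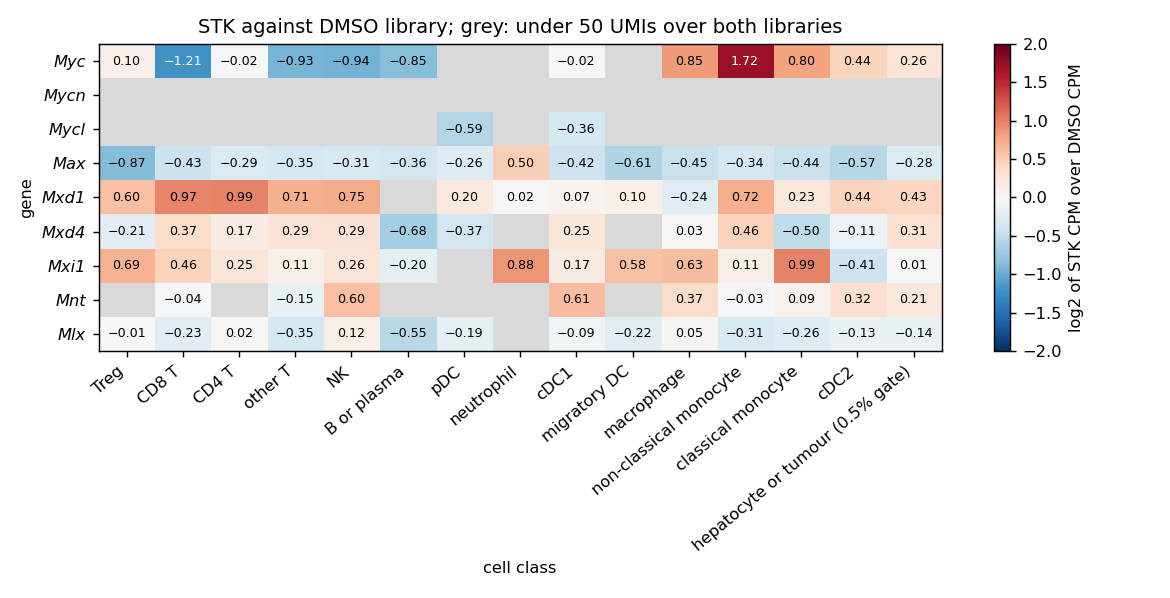
Log2 of the STK over the DMSO CPM for each gene (rows) in each gated class (columns), 1 library per group, with grey cells where fewer than 50 UMIs were counted over both libraries. Myc is blue in CD8 T (−1.21), other T, NK and B or plasma cells and red in macrophages and both monocyte classes (up to 1.72), Max is blue in all columns but the neutrophils, and Mxd1 is red in every T and NK column.

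Myc (ENSMUSG00000022346, chr15:61985391-61990374, plus strand, GRCm38) was highest in natural killer (NK) cells in both libraries, at 302 CPM in DMSO and 157 CPM in STK. B or plasma cells came next, at 222 and 124 CPM. In DMSO they were followed by other T cells (T cells that met none of the CD4, CD8 and Treg gates) at 127 CPM and CD8 T cells at 124 CPM, which did not differ beyond counting error, and by Treg cells at 82.6 CPM. CD4 T cells, macrophages, cDC2, cDC1 and classical monocytes lay between 38.8 and 18.4 CPM, and no neighbours in that order differed beyond counting error. Myc was rare in plasmacytoid dendritic cells (pDC, 2 and 11 UMIs), neutrophils (4 and 3 UMIs) and migratory dendritic cells (6 and 14 UMIs). In STK the order changed below the B cells: Treg cells came next at 88.6 CPM, and macrophages at 55.2 CPM stood level with CD8 T cells at 53.6 CPM.

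**Figure D2:**
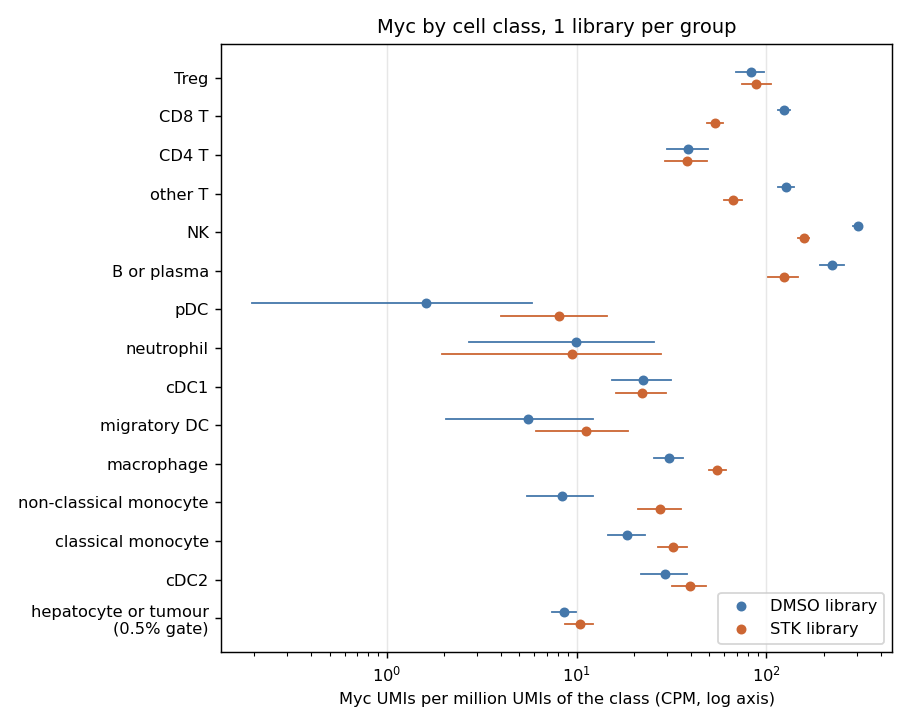
Myc CPM (x axis, log scale) in 14 leukocyte classes and in hepatocyte or tumour cells of the 0.5% gate, with 1 point per library and exact Poisson 95% intervals as bars. The DMSO and STK intervals do not overlap in CD8 T, other T, NK and B or plasma cells, where STK is lower, or in macrophages and both monocyte classes, where STK is higher.

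In CD8 T cells Myc stood at 124 CPM (711 UMIs) under DMSO and 53.6 CPM (423 UMIs) under STK (ratio 0.432, 0.382 to 0.488). In NK cells the ratio was 0.521 (0.479 to 0.566), in other T cells 0.526 (0.457 to 0.606), with 66.8 CPM in STK, and in B or plasma cells 0.556 (0.441 to 0.700). These were the 4 classes of the 11 measured in which Myc was at least 1.5 times lower. Treg cells (82.6 and 88.6 CPM, ratio 1.07, 0.838 to 1.37) and CD4 T cells (38.8 and 38.2 CPM, ratio 0.985, 0.686 to 1.41) had intervals that held equality. Within female cells the ratio was 0.524 in CD8 T cells, 0.522 in NK cells and 0.725 in other T cells, where the interval (0.481 to 1.14) held equality. Within male cells it was 0.426, 0.543 and 0.448 in the same order. Female B or plasma cells gave 0.739 (0.462 to 1.21), from 26 and 64 UMIs.

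The value in CD8 T cells was lower in STK in both sub-gates given here. Cells with Gzmk, a granzyme of memory and early dysfunctional cells, and without Havcr2 had 57.4 and 28.5 CPM (ratio 0.496, 0.367 to 0.670). Cells with Havcr2, which encodes the inhibitory receptor TIM-3, had 62.2 CPM in DMSO, from 62 UMIs, and 11.2 CPM in STK, from 13 UMIs (0.181, 0.0912 to 0.332). After each cell was thinned to 1000 UMIs, 8.05% of DMSO and 4.04% of STK CD8 T cells had a Myc UMI, and 19.6% and 12.2% of NK cells did (27.4% and 14.1%, and 46.4% and 34.3%, before thinning). In pDC 0 of 263 and 0 of 228 thinned cells had one, against 2 of 265 and 10 of 229 before thinning (0.755% and 4.37%), at median depths of 4605 and 4927 UMIs against 4110 and 3796 UMIs in CD8 T cells.

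Macrophages and monocytes went the other way. In macrophages Myc was at 30.6 CPM (136 UMIs) in DMSO and 55.2 CPM (350 UMIs) in STK, a ratio of 1.80 (1.48 to 2.21). Non-classical monocytes, the patrolling type, gated on Ace and Treml4, had 8.37 and 27.6 CPM from 26 and 61 UMIs (3.30, 2.06 to 5.45), and classical monocytes 18.4 and 32.1 CPM (1.74, 1.32 to 2.32). cDC2 lay at 29.1 and 39.4 CPM (1.36, 0.962 to 1.93) and cDC1 at 22.4 and 22.1 CPM (0.987, 0.613 to 1.60). The male ratio was 1.93 in macrophages, 2.75 in classical and 3.93 in non-classical monocytes, the last from 12 and 9 UMIs. In macrophages without Spp1 or Arg1, genes of tumour-associated macrophages, Myc stood at 29.7 and 55.3 CPM (1.86, 1.51 to 2.31), and in the 21 and 62 macrophages with them at 54.8 and 54.2 CPM. Within female cells the ratio was 1.29 (0.704 to 2.62) in macrophages, from 11 DMSO UMIs, and 0.53 (0.281 to 1.07) in classical monocytes, from 13 DMSO UMIs, the 1 pair past 1.5-fold whose direction turned under any alternative. The 17 stress and immediate-early genes went both ways in these classes and in lymphocytes. In macrophages 3 were higher (5.25% of all genes) and 8 lower (6%), and in non-classical monocytes 3 (5.48%) and 9 (9.06%). In classical monocytes 1 was higher (5.48%) and 9 lower (5.98%). In CD8 T cells 3 were higher (7.04%) and 5 lower (3.45%), and in NK cells 2 (3.86%) and 6 (6.45%). In that order their summed CPM in STK was 0.675, 0.577, 0.545, 0.912 and 0.931 times the DMSO sum. Hspa1b had a ratio of 0.0486 in macrophages and 0.0404 in CD8 T cells, and Egr1, an immediate-early transcription factor, 3.46 and 3.11. Their part in the Myc values was not tested. Over the 11 classes measured, the median Myc ratio was 0.987. Of all genes measured in 10 or more classes, 9.48% were, like Myc, higher in at least 1 class and lower in at least 1 other.

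Mycl (ENSMUSG00000028654, chr4:122995652-123002485, plus strand), which encodes L-MYC, was found mainly in dendritic cells of the pDC and cDC1 classes. It stood at 74.1 and 49.1 CPM in pDC (ratio 0.663, 0.476 to 0.918) and at 69.2 and 54.0 CPM in cDC1, the cross-presenting type (0.780, 0.589 to 1.03). These 2 classes did not differ beyond counting error in either library. cDC2 followed at 8.62 and 12.2 CPM, classical monocytes had 3.29 and 2.19 CPM, and migratory dendritic cells had only 0 and 2 Mycl UMIs. NK cells and B or plasma cells had 0 Mycl UMIs in both libraries. In NK cells the exact Poisson interval of this count reached up to 0.831 and 0.596 CPM. The pDC ratio lay just past the limit and stayed past 1.5-fold in 3 of its 13 alternatives, with a range of 0.581 in male cells to 0.843 with cells of more than 1 lineage gate assigned to a class, and it was below 1 in all 13. Mycn (ENSMUSG00000037169, chr12:12936093-12941914, minus strand) was close to absent from these counts, with 4 and 6 UMIs over all gated leukocytes, and was measured in no class.

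Max (ENSMUSG00000059436, chr12:76937269-76962201, minus strand), the shared partner, was detected in every class with a gradual order of levels. In DMSO it ran from 31.6 CPM in migratory dendritic cells to 117 CPM in neutrophils, and of neighbours in that order only non-classical monocytes and B or plasma cells differed beyond counting error. The STK value was below the DMSO value in 13 of 14 classes, with a median ratio of 0.763, and 9 of the 14 intervals lay below 1. Of the 1382 genes measured in all 14 classes, 7.16% were below DMSO in at least 13. Only Treg cells, at 85.0 and 46.3 CPM (142 and 68 UMIs, ratio 0.545, 0.402 to 0.733), and migratory dendritic cells, at 31.6 and 20.8 CPM from 34 and 26 UMIs (0.657, 0.378 to 1.13), passed 1.5-fold. CD8 T cells had 72.6 and 53.7 CPM (0.740, 0.645 to 0.849), and macrophages 90.9 and 66.7 CPM (0.734, 0.639 to 0.843). Neutrophils were the exception, at 117 and 165 CPM (1.41, 0.933 to 2.14). Within male cells 8 of 10 measured classes were below 1, with a median of 0.749 and 2 intervals below 1, and macrophages had the lowest ratio, 0.527. Within female cells 5 of 7 were below 1, with a median of 0.945 and 0 intervals below 1. NK cells had a ratio of 0.808 (0.701 to 0.932) over all cells but 0.945 in female and 0.919 in male cells.

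Mxd1 (ENSMUSG00000001156, chr6:86647042-86669161, minus strand), the MXD protein of terminally differentiating cells, was by far highest in neutrophils. It reached 1907 CPM in DMSO and 1931 CPM in STK neutrophils (ratio 1.01, 0.909 to 1.13), and 84.3% and 76.4% of neutrophils had a UMI after thinning to 1000 UMIs (89.3% and 86% before). In B or plasma cells the thinned share was 1.83% and 1.81%, at median depths of 1819 and 2085 UMIs against 1322 and 1419 UMIs in neutrophils. Migratory dendritic cells were second, at 391 and 418 CPM, and NK cells came after them, at 185 and 310.2 CPM. Without the 5 deepest cells of each library the neutrophil ratio was 0.862.

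The differences between the libraries lay mainly in lymphocytes. Mxd1 was higher in STK in CD8 T cells, at 59.5 and 117 CPM (341 and 923 UMIs, ratio 1.97, 1.73 to 2.23), and in CD4 T cells, at 99.8 and 198 CPM (1.99, 1.65 to 2.40). The same held in NK cells (1.68, 1.55 to 1.82), in other T cells, at 114 and 187 CPM (1.64, 1.46 to 1.84), and in Treg cells, at 168 and 256 CPM (1.52, 1.30 to 1.78). Non-classical monocytes were the myeloid class with a like difference, at 74.7 and 123 CPM (1.65, 1.38 to 1.98). The ratio was above 1 in 12 of 13 measured classes, and macrophages, at 86.7 and 73.2 CPM (0.845, 0.736 to 0.969), were the exception. Within female cells 5 of 8 classes with at least 30 sexed cells per library passed 1.5-fold upward (16.1% of all gene and class pairs did), and within male cells 6 of 11 did (7.7%), with 0 passing it downward in either (11.3% and 11.6%). In NK cells the female ratio was 1.502 and the male ratio 2.20. The CD8 sub-gates had ratios of 1.79 with Havcr2 and 1.90 with Gzmk.

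**Figure D3:**
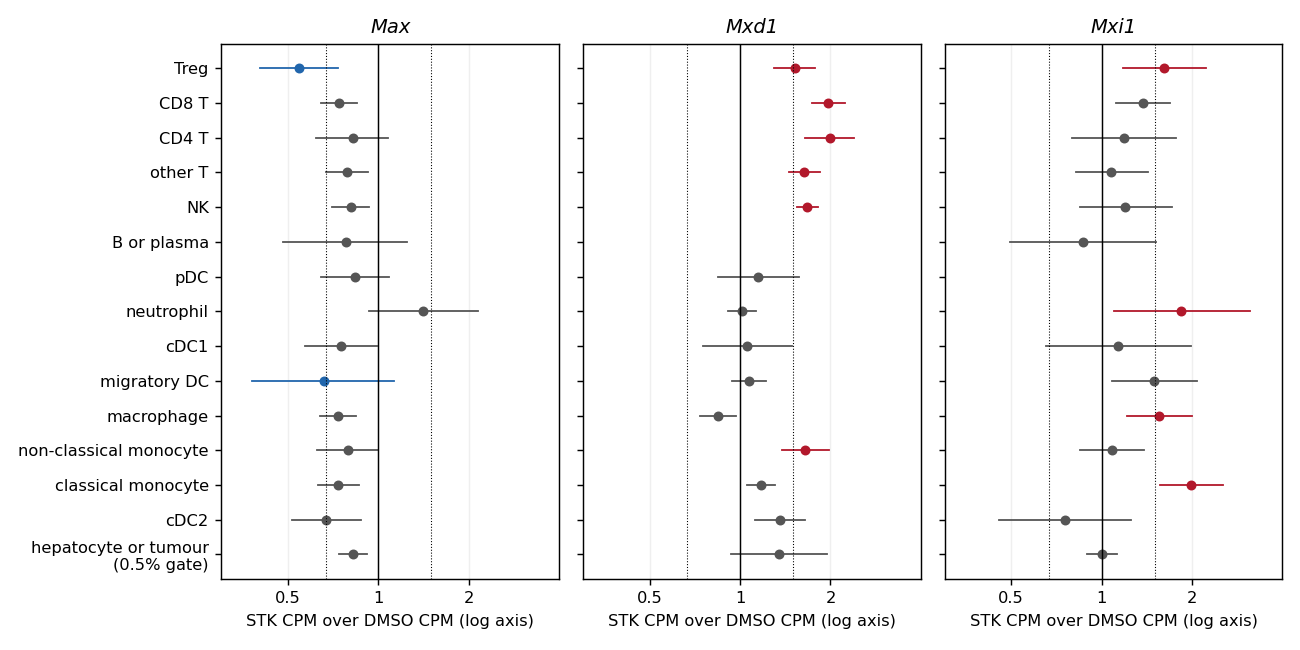
Ratio of STK CPM to DMSO CPM (x axis, log scale) for Max, Mxd1 and Mxi1 in each measured class, with exact 95% intervals for counting error, 1 library per group. Red and blue points are at least 1.5 times higher or lower (dotted lines), and Max sits left of the line at 1 in all classes but the neutrophils, while all 5 T and NK classes of Mxd1 sit past 1.5.

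Mxi1 (ENSMUSG00000025025, chr19:53310518-53375810, plus strand), also known as MXD2, was highest in neutrophils, at 67.1 and 124 CPM, and in migratory dendritic cells, at 57.7 and 86.3 CPM. It was higher in STK in classical monocytes, at 23.7 and 47.0 CPM (108 and 193 UMIs, ratio 1.98, 1.56 to 2.53), and in neutrophils (1.84, 1.099 to 3.13), where the counts were 27 and 39 UMIs. Treg cells had 41.9 and 67.5 CPM (1.61, 1.17 to 2.22) and macrophages 21.2 and 32.8 CPM (1.55, 1.21 to 2.0). In migratory dendritic cells the ratio of 1.496 (1.08 to 2.08) lay just under the limit. The macrophage ratio was 1.01 within female cells, from 7 DMSO UMIs, and 1.27 within male cells. For classical monocytes the values were 1.43 and 1.68. Mxi1 overlaps Gm10197 and another gene model on the opposite strand.

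Mxd4 (ENSMUSG00000037235, chr5:34173883-34187720, minus strand) was highest in T cells. Its highest levels were in Treg cells, at 134 and 116 CPM, and in CD4 T cells, at 120.3 and 135 CPM. NK, CD8 and other T cells lay between 75.9 and 106 CPM, and pDC at 106 and 82.1 CPM. Dendritic cells of the cDC1, cDC2 and migratory classes, monocytes and neutrophils were all at 36.2 CPM or less. Mxd4 was lower in STK in B or plasma cells, at 49.2 and 30.6 CPM from 45 and 30 UMIs, with an interval (0.379 to 1.01) that held equality. CD8 T cells had a ratio of 1.29 (1.15 to 1.46), NK cells 1.22 (1.08 to 1.39), and classical monocytes 0.706 (0.544 to 0.913).

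Mnt (ENSMUSG00000000282, chr11:74830920-74845725, plus strand), the most widely expressed MAX-binding repressor, was even across cells, from 8.37 to 24.9 CPM in DMSO and from 11.4 to 19.0 CPM in STK, and no neighbours in either order differed beyond counting error. It was higher in NK cells, at 12.4 and 18.8 CPM from 55 and 116 UMIs (1.51, 1.09 to 2.13), and in cDC1, at 11.9 and 18.1 CPM from 17 and 37 UMIs (1.53, 0.839 to 2.89). The cDC1 ratio was 1.03 within male cells.

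Mlx (ENSMUSG00000017801, chr11:101087277-101092207, plus strand, overlapping Psmc3ip on the opposite strand) was measured in 13 classes, and its ratios ran from 0.683 to 1.09 with a median of 0.878. Only the intervals of CD8 T cells (50.5 and 43.0 CPM, 0.726 to 0.9998) and other T cells (54.1 and 42.5 CPM, 0.645 to 0.955) lay below 1. It was highest in pDC, at 67.6 and 59.3 CPM. Among its known targets is Txnip, a glucose-responsive gene that MondoA and MLX drive. Txnip stood at 398 and 190.1 CPM in CD8 T cells (ratio 0.478) and 224 and 85.7 CPM in NK cells (0.382). In macrophages it stood at 184 and 69.2 CPM (0.376) and in classical monocytes at 222 and 69.3 CPM (0.313). Of the 7 listed targets 6 were measured in NK cells, 1 of them higher (3.86% of all genes) and 1 lower (6.45%). The higher one was G6pc, at 4.28 and 7.11 CPM (1.66, 0.950 to 3.01). G6pc was also higher in CD8 T cells, at 2.27 and 8.24 CPM (3.63), and in other T cells, at 3.40 and 13.8 CPM (4.07). The 6 targets measured in CD8 T cells had a median ratio of 1.11. In pDC Txnip stood at 326 and 319 CPM and in neutrophils at 512 and 549 CPM. Arrdc4, its relative and also a MondoA target, had a ratio of 1.27 in CD8 T cells and 1.05 in classical monocytes.

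The balance of the network was described by the UMIs of Mxd1, Mxd4, Mxi1 and Mnt together for each Myc UMI. The ratio serves to compare classes and libraries and not genes. In NK cells it was 0.982 (0.910 to 1.06) in DMSO and 2.86 (2.66 to 3.08) in STK. In CD8 T cells it was 1.39 and 4.86, 3.51 times apart, and in other T cells 1.88 and 4.96. Treg cells (4.31 and 5.12), CD4 T cells (6.72 and 10.1) and B or plasma cells (0.517 and 0.744) had smaller differences, and their intervals overlapped. Macrophages (5.74 and 3.25) and non-classical monocytes (20.3 and 8.39) went the other way beyond counting error, and in classical monocytes (11.8 and 7.99) the intervals overlapped. Within female cells the STK value over the DMSO value was 2.85 in CD8 T and 2.62 in NK cells, and within male cells it was 3.46 and 3.52. In classical monocytes it was 2.44 in female and 0.405 in male cells. B or plasma cells had the fewest antagonist UMIs for each Myc UMI. Neutrophils had 815 and 661 antagonist UMIs beside 4 and 3 Myc UMIs, too few for a precise ratio.

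**Figure D4:**
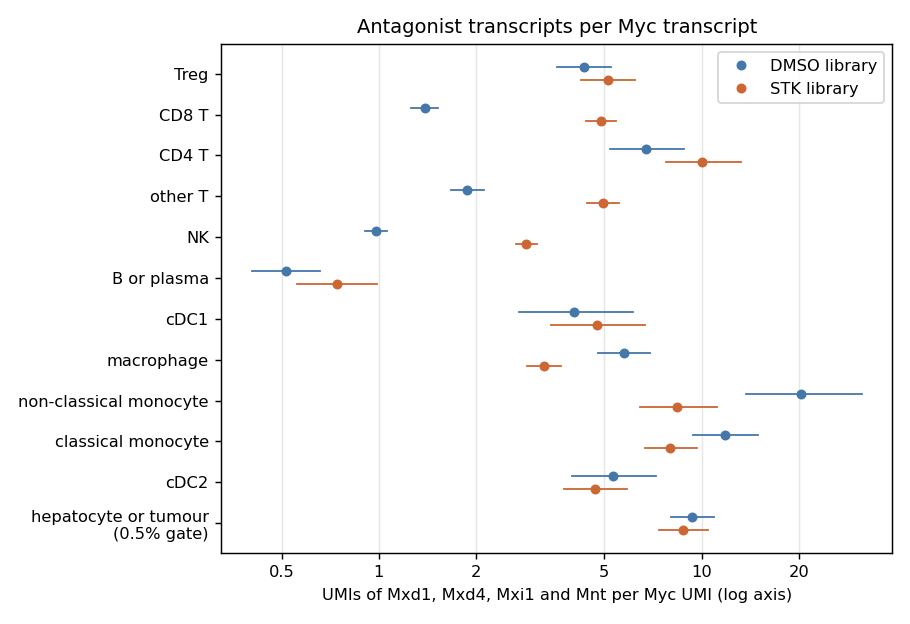
UMIs of Mxd1, Mxd4, Mxi1 and Mnt together for each Myc UMI (x axis, log scale) in classes with at least 20 Myc UMIs in each library, with 1 point per library and exact 95% intervals. STK lies right of DMSO in CD8 T, other T and NK cells (0.982 to 2.86 in NK cells) and left of it in macrophages and monocytes (20.3 to 8.39 in non-classical monocytes).

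Dividing and non-dividing cells of a class were compared within a library, with dividing cells defined by at least 3 UMIs of Mki67, Top2a, Nusap1, Birc5 and Ube2c. Mxd1 and Mxd4 were lower in dividing cells in every T and NK class examined. Mxd1 in NK cells stood at 99.9 CPM in dividing and 241 CPM in other DMSO cells (ratio 0.415, 0.349 to 0.492), and the STK ratio was 0.443 (0.397 to 0.494). In CD8 T cells the Mxd1 ratios were 0.458 and 0.543, and those of Mxd4 0.458 and 0.440. Myc did not follow that pattern throughout, with ratios of 0.603 (0.506 to 0.716) in DMSO and 1.096 (0.897 to 1.34) in STK CD8 T cells. Max was lower in dividing NK cells (0.739 and 0.810), and its intervals held equality in the CD8, CD4 and other T cells of both libraries. The share of dividing cells was close between libraries in CD8 T cells (17.7% and 18.1%) and NK cells (20.9% and 20.1%). Mxd3, an MXD relative from the wider network list that is known for its expression in dividing cells, had 98 UMIs in dividing and 1 UMI in other DMSO CD8 T cells. Without the dividing cells the Myc ratio was 0.358 in CD8 T and 0.560 in NK cells, and the Mxd1 ratio 1.72 in CD4 T cells.

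**Figure D5:**
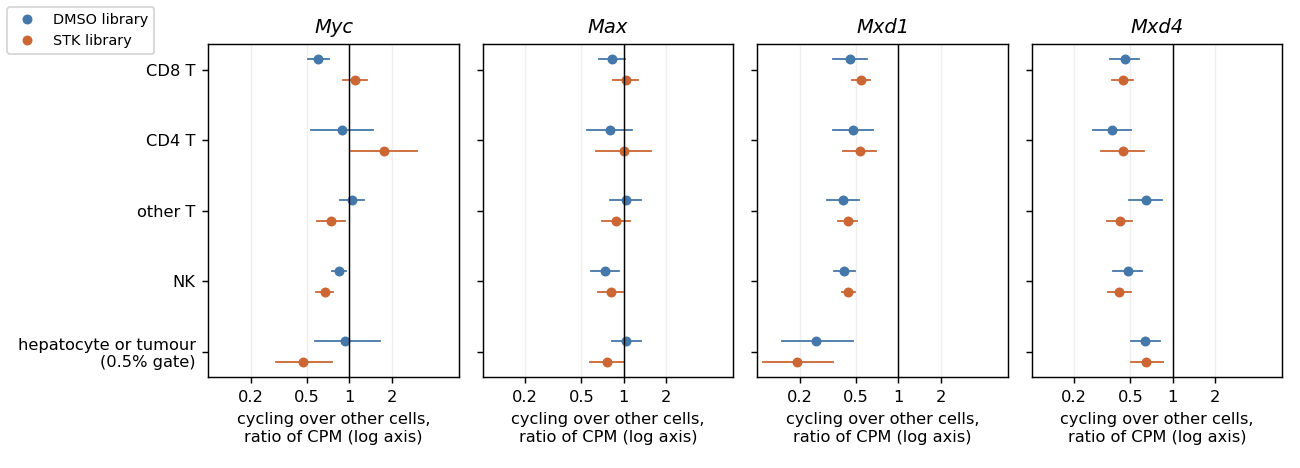
CPM of dividing over other cells of the same class and library (x axis, log scale) for Myc, Max, Mxd1 and Mxd4, with exact 95% intervals for counting error. Every point of Mxd1 and Mxd4 lies left of 1, whereas Myc and Max lie on both sides of it.

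The wider network, 35 genes for cofactors and for the kinases and ligases that act on the MYC protein, lay mostly within 1.5-fold. In CD8 T cells all 35 were measured, 1 was higher (7.04% of all genes) and 1 lower (3.45%). Their median log2 ratio was 0.11, and that of all 9972 genes 0.02. The higher gene was Fbxw7, which encodes the ubiquitin ligase subunit that marks MYC for degradation, at 8.03 and 14.3 CPM (ratio 1.78). The lower gene was Usp28, the deubiquitinase that counters it, at 9.95 and 5.32 CPM (0.535). In NK cells 1 of 34 was higher (3.86%), Pim3, a serine kinase, at 66.2 and 105 CPM (1.58), and 0 were lower (6.45%). Its relative Pim1 stood at 160 and 236 CPM in CD8 T cells (1.48), 409 and 571 CPM in NK cells (1.40) and 221 and 391 CPM in CD4 T cells (1.77). In macrophages Skp2, a ligase subunit of the cell cycle, was the 1 lower gene of 30 (6%), at 39.8 and 22.9 CPM. Of the 30, 0 were higher (5.25%). CD4 T cells had 2 of 31 higher (6.48% of all genes) and 3 lower (8.05%). In pDC 8 of 25 were higher (8.97%) and 1 was lower (5.75%). With the gate minimums doubled 1 of 29 was higher in pDC, and with mixed cells assigned 1 of 32, settings for which no share over all genes was computed.

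Known Myc targets, 54 genes of ribosome production, nucleotide and polyamine synthesis and translation, were mostly within 1.5-fold, also where Myc was not. In CD8 T cells 1 was higher (7.04% of all genes) and 3 were lower (3.45%). The other 50 stayed within 1.5-fold (median log2 ratio −0.03). In NK cells 1 was higher (3.86%) and 2 were lower (6.45%). The other 51 stayed within 1.5-fold (median −0.08, against −0.05 over all 9468 genes). The higher gene was in both cases Odc1, the rate-limiting enzyme of polyamine synthesis, at 181 and 413 CPM in CD8 T cells (ratio 2.28) and 214 and 439 CPM in NK cells (2.06), opposite to Myc. Among the lower ones were Tfap4, a transcription factor that Myc induces, at 9.95 and 4.94 CPM in CD8 T cells (0.497) and 8.34 and 2.91 CPM in NK cells (0.349), and Rrp12, a ribosome assembly factor, at 16.9 and 11.2 CPM in CD8 T cells (0.659). In macrophages 2 of 53 were higher (5.25% of all genes) and 1 lower (6%). The higher ones were Odc1, at 107 and 181 CPM (1.69), and Slc3a2, a subunit of amino acid transporters, at 214 and 383 CPM (1.79). Odc1 was also higher in other T (1.79) and B or plasma cells (1.985), where Myc was lower. It was higher too in Treg (1.52), CD4 T (1.89) and cDC1 cells (1.865), where the Myc intervals held equality, and in pDC (2.31). Classical monocytes had 3 of 53 higher (5.48%) and 0 lower (5.98%), with a median of 0.20. CD4 T cells had 10 of 51 lower (8.05%) and 1 higher (6.48%). The share of dividing CD4 T cells was 23.7% in DMSO and 14.1% in STK. Without them fewer targets were measured, 37, of which 0 were lower and 2 higher. The part of dividing cells in these counts was not tested. Values within each sex had a higher background. In CD4 T cells of females, of which DMSO had 32, 15 of 31 targets were higher where 25.6% of all genes were, and 1 was lower (10.8%). In those of males 17 of 36 were lower (16.4%) and 1 was higher (9.98%). Treg cells had 2 of 52 higher (5%) and 7 lower (7.15%), and other T cells 1 of 54 each way (4.68% and 5.76%). Non-classical monocytes had 1 of 53 higher (5.48%) and 7 lower (9.06%). The Treg count of lower targets was 2 of 50 without the 5 deepest cells and 0 of 50 in cells under 0.5% hepatocyte UMIs. That of non-classical monocytes was 0 of 50, with 3 higher, once Scrublet doublets were left out. Shares over all genes were not computed for the counts without dividing, deepest or doublet cells or under 0.5% hepatocyte UMIs. NK cells of males had 18 of 50 lower (15.4%) and 2 higher (9.2%), and those of females 2 of 52 lower (9.57%) and 3 higher (12.7%).

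Neutrophils and pDC stood apart in the target list, and their counts rested on few cells. In neutrophils 21 of 23 measured targets were lower (20.7% of all genes) and 1 was higher (13%). Of the 3979 target UMIs in the 225 DMSO neutrophils, 65.6% came from 3 cells, and the cell after these held 35. Without the 5 deepest cells of each library 12 targets were measured, 0 lower and 2 higher. In pDC 21 of 49 were higher (8.97%) and 0 lower (5.75%), among them Mthfd2, an enzyme of mitochondrial one-carbon metabolism, at 21.7 and 87.2 CPM. That count was 5 of 43 without the 4 and 8 dividing cells and 4 of 54 with cells of more than 1 lineage gate assigned. For the recomputed counts of neutrophils and pDC no share over all genes was computed.

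In the hepatocyte or tumour cells of the 0.5% gate, mouse Myc was at 8.63 and 10.4 CPM (184 and 144 UMIs, ratio 1.20, 0.959 to 1.502), a level near that of DMSO non-classical monocytes. None of the 7 measured members passed 1.5-fold, where 3.69% of all 10698 genes were higher and 3.27% lower. Max had 46.4 and 38.2 CPM (0.825, 0.741 to 0.917), Mxd4 29.2 and 36.3 CPM (1.24, 1.10 to 1.40), Mxi1 37.3 and 37.4 CPM (1.00), and Mlx 40.3 and 36.6 CPM (0.910). Mxd1 was scarce, at 3.14 and 4.25 CPM. The ratio was above 1 in female and below 1 in male cells for 4 members: Max (1.095 and 0.661), Mnt (1.39, 1.008 to 1.95, and 0.413, 0.149 to 0.922), Mlx (1.27 and 0.789) and Myc (1.39 and 0.800, the latter from 9 STK UMIs). Mxd4 was above 1 in both, at 2.01 and 1.17. The female share of sexed cells was 33.9% and 89.4%, and only 45 STK cells were male. All 53 measured Myc targets lay within 1.5-fold, at a summed 32154 and 31768 CPM. These sums were above the range over leukocyte classes of 3961 to 13322 CPM. Pim1 (16.3 and 26.5 CPM) and Pim3 (77.2 and 124 CPM) were the 2 higher genes of the wider list. Of the 17 stress and immediate-early genes 10 were higher in STK tumour cells (3.69% of all genes) and 1 was lower (3.27%). Their part in these values was not tested. In the 11 and 11 cells of the 5% gate, Myc had 2 and 3 UMIs, Max 6 and 8, Mlx 13 and 18, and Mxd4 19 and 6, too few to compare.

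Genes with the most similar profile were sought by Pearson correlation of log2(CPM + 5) over 28 points, 14 classes in 2 libraries, among 5336 genes. The points share libraries and depths, so the values are descriptions only. Myc was most like Tmem223 (0.825), Rnaseh2c (0.784) and Shisa5 (0.780). Max was most like Tmem189 (0.806), Preb and Rgs14. Mxd1 followed Cmip (0.872), Gadd45b, a growth arrest and stress gene (0.871), and Ssu72. Mxd4 had the closest partners of all, Saraf (0.916), Gbp6 and Ppp1cc, and Mxi1 followed Fas, the death receptor (0.833), Ehd1 and Ets2. Mnt was most like Tmem43 (0.757) and Mlx most like Cdc26 (0.850).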

How the data were processed

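Each library was deposited as a matrix of UMI counts per gene and barcode, made by the authors with Cell Ranger 6.0.2, per the file headers, on GRCm38 (mm10), per the submitters' processing notes. The sources used here do not give the strand setting or say whether doublets or free RNA were removed. Barcodes under 500 UMIs or 250 genes, or with over 10% of UMIs from mitochondrial genes, were dropped, 632 and 826 of them. Cells were gated on UMIs of marker genes (T cells, for example, by at least 2 Cd3d, Cd3e and Cd3g UMIs), and 934 and 1196 cells that passed gates of more than 1 of 5 lineages were left out as mixed. A further sub-gate of CD8 T cells is not reported here. Doublets were not removed further, and leaving out Scrublet calls is an alternative.

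UMIs were summed per class and library and divided by the class total, as counts per 1000000 (CPM), with exact Poisson 95% intervals. STK over DMSO ratios have exact conditional binomial intervals, and where a library had fewer than 3 UMIs only counts are given. Shares of cells have exact Clopper-Pearson intervals, and a count of 0 allows up to the upper limit of its exact interval. Depth per class ran from 315349 to 7889156 UMIs in the leukocyte classes. The ratio code was tested on simulated data. Female cells had Xist and no Ddx3y, Eif2s3y, Kdm5d or Uty UMI, male cells the reverse.

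Gene loci came from the GENCODE annotation of GRCm38 and promoters from RefSeq. The 9 genes, the gene lists, the gates and the tests were chosen with earlier results of these data known. Of each list the text names genes among the 3 furthest from equal each way in a class, and for each of the 9 genes the 3 genes of highest correlation. Mxd3, Pim1, Pim3, Txnip and Arrdc4 are also given in other classes, and the list of 17 stress and immediate-early genes was added later. Analyses used Python 3.11.15, numpy 2.4.6, scipy 1.17.1, pandas 2.3.3, scanpy 1.11.5 and matplotlib 3.10.9.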

Additional observations from a re-analysis of the deposited data

Results flagged for a closer look

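Myc differed in opposite directions between cell classes under the same contrast. Its STK over DMSO ratio was 0.432 in CD8 T cells, 0.526 in other T cells, 0.521 in NK cells and 0.556 in B or plasma cells. It was 1.80 in macrophages, 3.30 in non-classical monocytes and 1.74 in classical monocytes. The intervals of Treg (1.07), CD4 T (0.985), cDC1 (0.987) and cDC2 cells (1.36) held equality. Within female cells the ratio was 1.29 (0.704 to 2.62) in macrophages and 0.53 (0.281 to 1.07) in classical monocytes. Within male cells it was 1.93 and 2.75 in the same order. With 1 library per group the difference between lymphocytes and myeloid cells was not tested.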

How the results depend on the processing

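No paired analysis was possible because each group is 1 library. Of 1165 ratios of the 9 genes recomputed under alternatives, 1075 moved by less than counting error and 89 by more. The remaining 1 reversed, Myc in classical monocytes, at 0.53 in female cells. Only pairs past 1.5-fold could be counted as reversed, and ratios of other pairs also crossed 1. Mxi1 in migratory dendritic cells went from 1.496 to 0.835 in male cells. Mlx in CD4 T cells kept its direction in 1 of 13 alternatives. The pairs at least 1.5 times higher and lower, 15 and 8 of 86, became 7 and 2 of 24 in female cells and 10 and 8 of 52 in male cells, over classes with at least 50 such cells per library. With at least 30, the limit used for the values by sex in the text, they were 8 and 6 of 44 and 11 and 8 of 58. Over all genes at that limit, 16.1% of pairs were higher and 11.3% lower in female cells, and 7.7% and 11.6% in male cells. With cells of 2000 to 10000 UMIs 5 of 67 pairs were lower, and with a minimum of 200 UMIs 5 of 49 were lower. A fold limit of 5/4 gave 23 and 22 pairs, and a fold of 2 gave 1 and 1. The median Myc ratio in female cells was 0.524 over the 3 measured classes with at least 50 cells per library. These were CD8 T, other T and NK cells, which had ratios of 0.432, 0.526 and 0.521 over all cells. The median of 0.987 over all cells rested on 11 classes. In female cells it was 0.627 over the 6 measured classes with at least 30. The antagonist ratio of migratory dendritic cells reversed to 3.03 with the gate minimums doubled, from 10 Myc UMIs. The cause was not tested. Without the 203 shared barcodes 14 and 7 of 86 pairs were past 1.5-fold, and without Scrublet calls 15 and 7. Shares over all genes were computed only for the main setting and for sexed cells at the limit of 30. The pair counts at every other setting therefore have no background beside them. The Scrublet threshold of 0.25 was set after the default called 217 DMSO cells and 0 STK cells. The hepatocyte gate at 20% was not run, since it left too few cells.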

Other observations

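Cells outside the 14 classes carried the network too. In the 934 and 1196 mixed cells Myc was at 49.0 and 28.9 CPM (ratio 0.590), Max at 83.7 and 57.4 CPM and Mycl at 23.1 and 23.9 CPM. In the 2451 and 1680 cells that passed no leukocyte or tumour gate, Myc was at 25.8 and 37.7 CPM (1.46), Max at 77.7 and 69.8 CPM and Mxd1 at 104 and 87.8 CPM.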
